A study of Mus musculus with 18 samples.

Results

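The genes described here are 10 interferon-inducible GTPases of the mouse: the guanylate-binding proteins Gbp2, Gbp3, Gbp4, Gbp5, Gbp6, Gbp7 and Gbp9 and the immunity-related GTPases Igtp, Irgm1 and Iigp1. They were taken by symbol from the authors' deposited table of a fibroblast RNA-seq comparison, which holds 35734 genes, 16757 of them with an adjusted p. The set was put together with the results of that comparison known, Gbp3 first, so the RNA values below describe the genes and test nothing about them. Mouse embryonic fibroblasts of the C57BL/6 strain carrying R26-M2rtTA, a transactivator that doxycycline switches on, were infected with doxycycline-inducible lentiviral vectors and held in doxycycline for 2 days (48 h). One group received Brn2 and Myt1l, a pair of neuronal transcription factors, and the other received the same pair plus Ikzf1 and Ikzf4, zinc-finger factors of the Ikaros family. Each group had 3 RNA-seq libraries, and the labels do not say whether these came from separate cultures. The libraries held 34966344 to 44270426 estimated reads. Chromatin at the same genes was read in a second system, the retina, from 2 multiome ATAC libraries, which record open chromatin in single nuclei. The multiome ATAC library of a control carrying mCherry is labelled as Muller glia from GLAST-CRE ERT2 ; RosaYFP mice of the C57BL/6 strain, where Cre is driven by a glial promoter. The labels of the Ikzf1/4 library repeat its title in place of tissue and genotype. Both are described with tamoxifen and 14 days, while run names in the file headers carry 48 h. Their labels do not say whether the 14 days are an age or a time after tamoxifen, and give no other age.

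Interferon-inducible GTPases are part of cell-autonomous defence. Interferons act through Jak kinases and Stat factors, and these genes are then switched on through a gamma-activated site (GAS) and an interferon-stimulated response element (ISRE) near their start. Guanylate-binding proteins assemble on membranes around bacteria and parasites. The immunity-related GTPases fall into effectors that load onto such membranes, such as Iigp1, and regulators that sit on the cell's own membranes, such as Igtp and Irgm1. Fibroblasts can express both families and are a usual cell type for studying them.

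The genes lie in clusters, here in the coordinates of GRCm38.p6. On chromosome 3 the order is Gbp5 (chr3:142496934-142522344), Gbp7 (chr3:142530336-142550151), Gbp3 (chr3:142560016-142573213) and Gbp2 (chr3:142620663-142638008). On chromosome 5 it is Gbp9 (chr5:105076464-105110357), Gbp4 (chr5:105115767-105139586) and Gbp6 (chr5:105270702-105295871). Irgm1 (chr11:48865245-48871420) and Igtp (chr11:58199556-58207592) share chromosome 11 and are far apart, and the place of Iigp1 is given with its values. Several of these genes have near-identical neighbours, so reads can be split between copies and the value of a single gene in the chromosome 5 cluster is uncertain.

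The promoters are shown first because every member with a promoter window here held one short motif. RefSeq promoter windows (GRCm38.p6, 250 bases before to 50 after a start, 300 bases) were given for 6 of the 10 genes: Gbp2, Gbp3, Gbp5, Gbp7, Igtp and Irgm1. For Gbp3 there were windows at 2 starts. The ISRE core was searched as GAAANNGAA on both strands, and its matches are in capitals in the stretches that follow, each read 5′ to 3′ along the gene. On the opposite strand the same motif reads as TTC and TTTC separated by a pair of free bases. The full window of the first Gbp3 start (chr3:142559794-142560093, plus strand) is given, since Gbp3 had the lowest fold change, and 60-base stretches around the match are given for the others.
Gbp3: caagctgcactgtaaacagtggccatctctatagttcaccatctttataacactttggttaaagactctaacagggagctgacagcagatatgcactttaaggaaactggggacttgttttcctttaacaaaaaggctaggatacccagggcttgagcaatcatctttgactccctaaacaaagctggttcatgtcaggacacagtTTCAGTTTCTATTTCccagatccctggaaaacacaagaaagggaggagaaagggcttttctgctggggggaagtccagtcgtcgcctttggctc
Gbp5 (chr3:142496744-142496803, plus strand): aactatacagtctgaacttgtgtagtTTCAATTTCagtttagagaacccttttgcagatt
Gbp7 (chr3:142530258-142530317, plus strand): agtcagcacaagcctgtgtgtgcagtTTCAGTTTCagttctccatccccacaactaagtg
Gbp2 (chr3:142620579-142620638, plus strand): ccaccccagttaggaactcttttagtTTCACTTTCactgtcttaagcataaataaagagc
Irgm1 (chr11:48871414-48871473, minus strand): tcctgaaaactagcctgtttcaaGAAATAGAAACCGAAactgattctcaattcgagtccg
Igtp (chr11:58199496-58199555, plus strand): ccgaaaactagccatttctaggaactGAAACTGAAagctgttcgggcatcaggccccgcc

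All 6 genes with a window held the ISRE core, in 6 of their 7 windows, while 8.56% of all 32851 windows held it. The window of the second Gbp3 start had no match. With the start base counted as 0, the match began at -52 in Gbp7, -58 in Gbp2, -34 in Igtp and, farther out, at -164 in Gbp5. Gbp3 had a pair of overlapping matches beginning at -44 and -38, and Irgm1 a pair beginning at -30 and -24. Within the 100 bases before a start, 5 of the 6 genes had a match, against 2.74% of all windows. The guanylate-binding protein genes carried the motif on the opposite strand, and Irgm1 and Igtp on their own strand.

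The GAS motif, searched as TTCNNNGAA on both strands, was found in Gbp5, Gbp7 and Igtp, 3 of the 6 genes, and in 8.298% of all windows. In Gbp5 it began at -245 and -52, in Gbp7 at -106 and -87, and in Igtp at -45. The Ikaros core GGGAA, a short motif of the added factors' family, was in windows of 4 of the 6 genes and in 62.7% of all windows. In Gbp3 one of its matches began at -32 on the opposite strand and overlapped the end of the second ISRE match. Irgm1 and Igtp held no Ikaros core in their windows. These matches are letters in a reference sequence, and no binding was measured at them here.

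**Figure D1:**
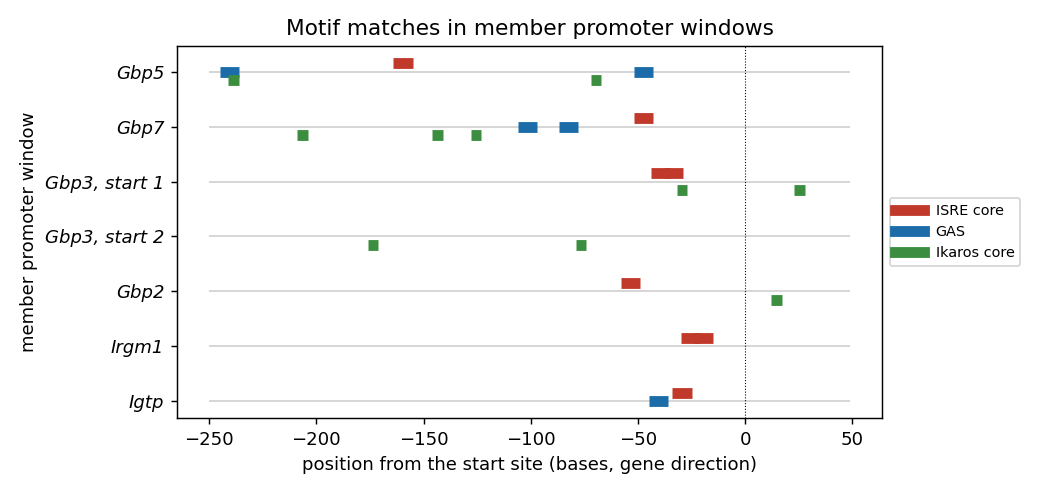
Matches of the ISRE core (red), GAS (blue) and Ikaros core (green) in the 7 promoter windows of 6 GTPase genes, by position in bases from the start along the gene. The ISRE core lies within 100 bases before the start in 5 genes and farther out in Gbp5.

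With Ikzf1 and Ikzf4 added, 8 of the 10 genes were called lower and 0 higher in the authors' deposited table, where a call is a DESeq2 adjusted p under 0.05. Of all genes in the authors' deposited table with an adjusted p, 15.4% were called lower and 15.3% higher by that rule. Because the genes were chosen from this contrast, nothing is read from their count against that background. All 10 log2 fold changes were negative in the authors' deposited table, with a median of -0.51, and the median of all genes there was -0.0004. In bulk RNA, fewer cells that express a gene and less RNA in each cell cannot be told apart. The authors' deposited table gives 1 mean per gene over the 6 libraries, so the value of each library is not shown and overlap of the groups was not examined.

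Gbp3, a guanylate-binding protein of the chromosome 3 cluster, stood apart from the rest. Its log2 fold change in the authors' deposited table was -2.19 (SE 0.14) at a mean normalised count of 699.2. This puts its level with Ikzf1 and Ikzf4 at 21.9% of the level without them in the authors' deposited table, with 18.1 to 26.5% as the range within 1.96 SE. Its rank was 4 from the lowest among the 16757 genes of the authors' deposited table. No other member's interval reached that of Gbp3.

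The remaining genes of the chromosome 3 cluster spread widely. Gbp7, reported to take part in assembling the phagocyte oxidase, was at -0.81 (SE 0.07) in the authors' deposited table, or 56.8% (51.5 to 62.7%) of the level without Ikzf1 and Ikzf4, at a mean of 1459. Gbp2, which coats vacuoles of parasites and bacteria, was at -0.37 (SE 0.12) in the authors' deposited table, or 77.4% (65.9 to 90.8%), at a mean of 646.2. Gbp5, known for its part in inflammasome assembly, was not called in the authors' deposited table, at -0.12 (SE 0.21, interval -0.52 to 0.28). Its mean of 55.6 in the authors' deposited table was low, and of the genes with a mean of 15 to 60 there 15.84% were called, against 35.32% with a mean of 200 to 2000. So Gbp3 lies between Gbp7 and Gbp2 on the chromosome, and both of these were called lower with smaller changes.

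On chromosome 5 the called genes were Gbp6 and Gbp9, further guanylate-binding proteins. Gbp6 was at -0.57 (SE 0.16) in the authors' deposited table, or 67.5% (54.1 to 84.3%), at a mean of 285.3. Gbp9 was at -0.45 (SE 0.13) in the authors' deposited table, or 73.4% (61.2 to 88.1%), at a mean of 340.7. Gbp4 was not called in the authors' deposited table, at -0.14 (SE 0.22, interval -0.57 to 0.30), and had the lowest mean of the set, 19.1. For Gbp4 and Gbp5 these intervals include both no change and the values of Gbp9 and Gbp2, so a change of that size was not detectable at this depth.

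Among the immunity-related GTPases, the effector Iigp1 (chr18:60373616-60392634), which attacks the vacuole membrane of intracellular parasites, had the lowest value. It was at -1.21 (SE 0.22) in the authors' deposited table, or 43.3% (32.1 to 58.4%), at a mean of 475.1. Irgm1, a regulator found on Golgi and lysosomal membranes, was at -0.60 (SE 0.08) in the authors' deposited table, or 66.1% (59.2 to 73.9%), at a mean of 10172. Igtp, a regulator of the endoplasmic reticulum and lipid droplets, was at -0.29 (SE 0.09) in the authors' deposited table, or 81.7% (72.4 to 92.1%), at a mean of 1181. The interval of Iigp1 overlaps that of neither regulator. Of the 8 called genes, 2, Gbp3 and Iigp1, passed an added threshold of an absolute log2 fold change over 1 in the authors' deposited table. That rule called 0.913% of all genes in the authors' deposited table lower and 1.24% higher.

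**Figure D2:**
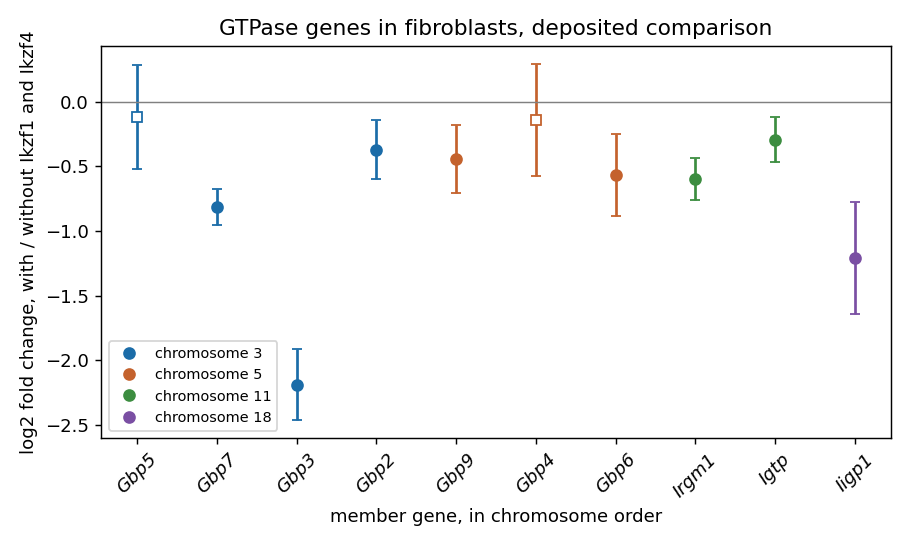
Log2 fold change of each GTPase gene with against without Ikzf1 and Ikzf4 in the authors' deposited table, in chromosome order; bars are 1.96 SE, filled points were called at an adjusted p under 0.05 and open points were not. Gbp3 at -2.19 lies below the interval of every other gene, and the open points are Gbp5 and Gbp4.

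The wider family outside these 10 genes was read from a list of 18 symbols, of which 13 were names in the authors' deposited table and 10 had an adjusted p. Of those, 6 were called lower and 0 higher in the authors' deposited table, with a median of -0.65, where 15.4% of all genes were called lower and 15.3% higher. With an absolute log2 fold change over 1 required as well, 3 were called lower in the authors' deposited table, where 0.913% of all genes were. Tgtp1, an effector that marks parasite vacuoles, was at -1.80 (SE 0.19) in the authors' deposited table, and Gm4951 at -1.49 (SE 0.19). Ifi47, another effector, was at -1.06 (SE 0.16) in the authors' deposited table. Irgm2, the third regulator of its class and a neighbour of Igtp, was at -0.78 (SE 0.08) there, while the authors' deposited table put Igtp at -0.29. Gvin1, a very large inducible GTPase, was at -0.77 (SE 0.09) in the authors' deposited table. Tgtp2, a near-identical copy of Tgtp1, was at -0.53 (SE 0.20) in the authors' deposited table, so the reads of that pair may be split between them. Gm12250, F830016B08Rik, Gm4841 and Gbp8 were not called in the authors' deposited table, at -0.26 to -0.16. Gbp11 and Gbp2b had no adjusted p, and Gbp10 was listed at a mean of 0 in the authors' deposited table. This list was drawn up with earlier results of these data known.

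Genes upstream of the GTPases were called about as often as all genes. Of 27 ligands, receptors, kinases, factors and inhibitors of interferon signalling, 23 had an adjusted p in the authors' deposited table, 3 were called lower and 4 higher, and the median was -0.06, where 15.4% of all genes were called lower and 15.3% higher. Usp18, an inhibitor at the type I interferon receptor, was lowest in the authors' deposited table at -0.92 (SE 0.10). Stat2, a subunit with Irf9 of the factor that binds ISREs, was at -0.85 (SE 0.09) in the authors' deposited table. Ifnar1, a chain of the type I receptor, was called lower at -0.17 (SE 0.05) in the authors' deposited table. Stat3, Ptpn2, Pias1 and Ifngr1 were called higher in the authors' deposited table, at 0.18 to 0.28. Irf1, a factor that acts at GTPase promoters, was not called, at -0.08 in the authors' deposited table. Socs3, a feedback inhibitor, had the highest value of the list in the authors' deposited table at 0.38 and was not called. Ifng itself was listed at a mean of 0 in the authors' deposited table.

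Other targets of interferon-gamma were also called at shares near those of all genes. Of 18 in the authors' deposited table, 16 had an adjusted p, 3 were called lower and 2 higher, and the median was -0.05, against the same 15.4% lower and 15.3% higher of all genes. Psmb10, an immunoproteasome subunit, was at -0.80 (SE 0.13) in the authors' deposited table, and Psmb8 and Serping1 were called lower at -0.34 and -0.44. Icam1, an adhesion molecule, was at 0.71 (SE 0.10) and Cd274, an inhibitory ligand for T cells, at 0.42 (SE 0.12) in the authors' deposited table, both called higher. Of 20 genes for loading, autophagy and inflammasomes at membranes, 2 were called lower and 2 higher in the authors' deposited table, with a median of 0.01, against 15.4% and 15.3% of all genes. Rnf213, an interferon-inducible ubiquitin ligase, was at -0.89 (SE 0.07) in the authors' deposited table. Trim21 at 0.21 was the upper end of that list in the authors' deposited table and was not called.

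**Figure D3:**
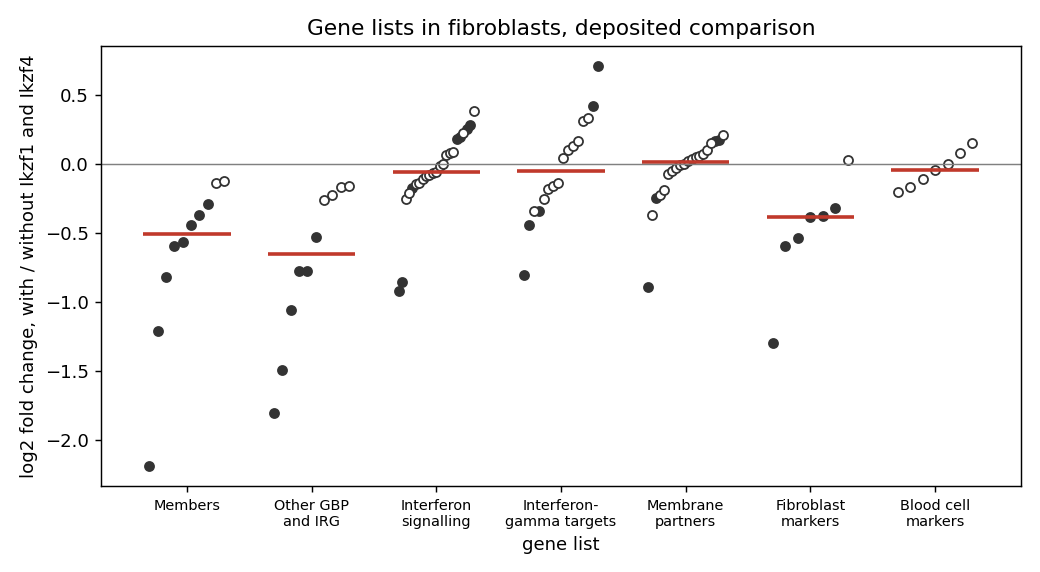
Log2 fold change of each gene with an adjusted p in the authors' deposited table, by gene list; filled points were called at an adjusted p under 0.05, open points were not, and red bars are list medians. The 10 GTPase genes and the rest of their family lie at or below -0.12, while the signalling, target and partner lists spread around 0.

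The fibroblast label was checked with marker lists. All 7 fibroblast markers were detected, with means of 695.9 to 120590 in the authors' deposited table, and 6 of them were called lower, with a median of -0.38. The shares of all genes to set beside this and the other marker lists are again 15.4% lower and 15.3% higher in the authors' deposited table. Col3a1, a fibrillar collagen, was lowest at -1.29 and Pdgfra was not called at 0.03 in the authors' deposited table. Vim and Thy1 were also called lower there, at -0.59 and -0.53. Blood-cell markers were present too: Csf1r and Adgre1 of macrophages had means of 2580 and 1620 in the authors' deposited table, and the T-cell gene Cd3e was listed at 0. Of 7 blood-cell markers with an adjusted p in the authors' deposited table, 0 were called in either direction, and their log2 fold changes were -0.20 to 0.15. Of 4 neuron markers with an adjusted p in the authors' deposited table, 2 were called lower, with a median of -0.36: the vesicle protein gene Syt1 at -0.47 and the tubulin gene Tubb3 at -0.42. None of 5 endothelial and 4 microglia markers was called in the authors' deposited table, with medians of -0.12 and -0.15. The authors' deposited table gives no level by group, so summed marker levels per group were not analysed here, and the part of cell composition in the fall of the GTPase genes was not tested.

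Promoter motifs were also set against the calls of all genes. Of 1100 genes with an ISRE core in a promoter window, 18.09% were called lower and 14.27% higher in the authors' deposited table. Of 11278 genes without it, 15.86% were called lower and 15.77% higher in the authors' deposited table. Across the genome the share called lower thus differed little between genes with and without the ISRE core, and that difference was not tested. For the Ikaros core the shares called lower were 16.33% with and 15.47% without in the authors' deposited table.

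Chromatin at the same loci was read in the retinal libraries. With 1 library per group there is no test, and intervals are exact 95% Clopper-Pearson intervals that cover counting error only. Barcodes with at least 3000 fragments numbered 1964 in the control and 762 with Ikzf1/4, and 3 barcodes were found in both.

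A few very large barcodes weighed on these libraries. Barcodes over 50000 fragments numbered 19 and 23 and held 20.79% of the fragments in kept barcodes of the control and 40.55% of those in kept barcodes with Ikzf1/4. The promoter share is the number of overlaps with promoter windows per 100 fragments, and a fragment that touches several windows counts in each. Its median was only 4.346 and 5.275 in these large barcodes, against 25.01 and 28.89 over all kept barcodes. Ratios are therefore given for all barcodes with at least 3000 fragments. They are also given for the 1881 and 683 with 3000 to 50000 fragments and a promoter share of at least 5%. Levels per kb and the profiles around starts are given for the filtered barcodes only. That second filter was chosen after seeing the data, from several compared, and among them it gave the lowest ratio for Gbp3.

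Over the 10 gene windows (gene plus 2 kb on both sides), the control had 1220 fragments, or 67.73 CPM (fragments scaled to 1000000 fragments of the kept barcodes), and the Ikzf1/4 library 1053, or 70.56 CPM. The ratio of Ikzf1/4 to control was 1.04 (0.958 to 1.13). In the filtered barcodes there were 863 and 384 fragments, and the ratio was 0.734 (0.649 to 0.829), on the other side of 1. The median ratio over 18813 gene windows was 0.981 for all kept barcodes and 1.07 for the filtered ones. Past 1.5-fold, 1 GTPase window was lower (Igtp) and 0 higher, where 2.96% of all windows were lower and 2.81% higher. After filtering 3 were lower (Gbp2, Gbp3 and Gbp7) and 0 higher, where 9.88% of all windows were lower and 3.21% higher. In the filtered control most GTPase windows held fewer fragments per kb than the median window. The shares of all windows were not matched for that level, and its part in these counts was not tested.

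Gbp3 had 158 fragments in the control and 103 with Ikzf1/4, a ratio of 0.787 (0.608 to 1.01). In the filtered barcodes it had 132 and 34, a ratio of 0.425 (0.282 to 0.623), the lowest of the 10 under that filter. That rank depended on the setting. Igtp was lowest over all kept barcodes (0.661), for barcodes with at least 10000 fragments (0.577) and with 10 kb on both sides (0.626). With 3000 to 50000 fragments only, Gbp2 was lowest at 0.473. Gbp3 was lowest for all barcodes (0.856) and, level with Iigp1, with the promoter share only (0.634). The Gbp3 neighbour Gbp2 went from a ratio of 0.941 to 0.480 (0.288 to 0.772), with 79 and 23 fragments after filtering. Gbp7 went from 0.955 to 0.660 (0.462 to 0.929), with 120 and 48 fragments. These 3 neighbours were the windows whose filtered interval lay below 1, where 14.9% of all gene windows lay below 1 and 33.7% above. With either part of that filter alone, the 3 intervals did not all lie below 1. That of Gbp7 reached 1.01 with 3000 to 50000 fragments only. With the promoter share only, those of Gbp2 and Gbp7 reached 1.15 and 1.03. Before filtering, 1 interval lay below 1 and 3 above, where 22.0% of all gene windows lay below and 16.2% above. Those 3 had ratios below 1 afterwards: Gbp4 went from 1.44 to 0.685 (0.397 to 1.15), Gbp5 from 1.43 to 0.725 (0.487 to 1.06) and Gbp9 from 1.44 to 0.667 (0.370 to 1.16). Gbp6 was at 1.04 and then 0.825, and Iigp1 at 1.08 and then 0.672 (0.390 to 1.12).

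At the regulators the ratio was higher after filtering. Igtp was at 0.661 (0.492 to 0.882) before filtering and 0.913 (0.649 to 1.27) after. Irgm1 was at 0.973 and then 1.17 (0.886 to 1.55), the highest of the filtered ratios. Irgm1 also had the most fragments per kb of the 10 windows in the filtered control, 0.918 CPM per kb, near the median of 0.827 over all windows. The other windows lay below that median. Igtp was at 0.625, Gbp3 at 0.560, Gbp7 at 0.368, Gbp2 at 0.270 and Gbp5 at 0.226 CPM per kb. Iigp1 was at 0.171, Gbp6 at 0.140 and Gbp4 at 0.139 CPM per kb. The lowest was Gbp9 at 0.0906 CPM per kb. The shares of all gene windows whose intervals left out 1 were not matched for this level either.

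**Figure D4:**
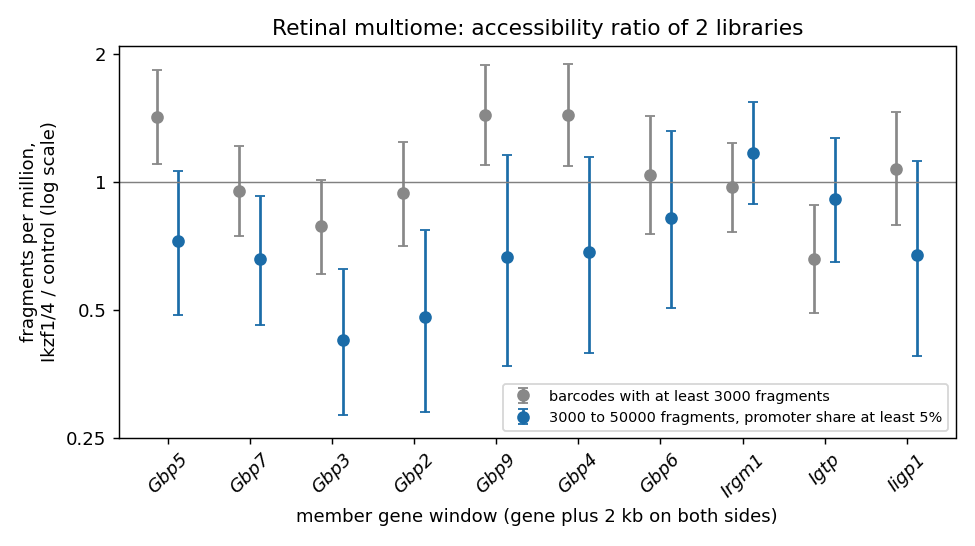
Ratio of fragment CPM, Ikzf1/4 to control, at each GTPase gene window on a log axis, for all barcodes with at least 3000 fragments (grey) and for filtered barcodes (blue); bars are exact 95% counting intervals from 1 library per group. Filtering moved Gbp3 from 0.787 to 0.425 and took Gbp4, Gbp5 and Gbp9 across 1.

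Fragments at windows of cell-type markers differed between these libraries. In the filtered barcodes the 5 Muller glia marker windows summed to 264 CPM in the control and 210.4 with Ikzf1/4, and all 5 ratios were below 1; over all kept barcodes the sums were 226 and 168 CPM. The 4 rod windows summed to 104.3 and 231 CPM, and all 4 ratios were above 1; over all kept barcodes the sums were 87.9 and 152 CPM. The 4 microglia windows summed to 61.6 and 44.8 CPM, with 3 ratios below 1 and P2ry12 lowest at 0.548; over all kept barcodes the sums were 61.2 and 45.6 CPM. No marker window was at 0 in either library. Nuclei were not split by type, so a different mix of cells and a change within cells cannot be told apart in these sums, and their part in the ratios at the GTPase genes was not tested.

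At promoter windows alone counts were small. Over the 7 windows of 6 genes the control had 187 fragments and the Ikzf1/4 library 103, a ratio of 0.665 (0.518 to 0.850). In the filtered barcodes these were 175 and 79, a ratio of 0.745 (0.564 to 0.977). The windows of the Gbp3 starts lie close together. A fragment that touches both counts in each, while the intervals treat all counts as separate. Igtp had 56 and 25 fragments, Gbp7 34 and 13, and Gbp2 17 and 4, and the intervals of these 3 ratios lay below 1, as did those of 11.4% of all 32851 promoter windows, while 3.70% lay above 1. In the filtered barcodes their intervals reached 1.13, 1.08 and 1.08, so all 3 included 1, where 1.81% of all promoter windows lay below 1 and 16.8% above. These shares have no floor on the counts, so sparse windows, whose intervals seldom leave out 1, are among them. Irgm1 had 44 and 38 fragments and Gbp5 11 and 10. The first Gbp3 start had 12 and 7 fragments and the second 13 and 6, where the median of all promoter windows was 7 and 6. In the filtered barcodes Irgm1 had 41 and 33, Gbp5 11 and 6, and the Gbp3 starts 12 and 3 and 11 and 3, where the median was 6 and 4.

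Fragment ends of the filtered barcodes were then placed around each start. An even spread would put 15% of ends between 400 bases before and 200 after a start. Igtp had 68.8% there in the control and 64.5% with Ikzf1/4, Gbp7 58.3% and 43.1%, and Gbp2 52.1% and 26.9%. Irgm1 had 40.3% and 49.7%, and Gbp5 36.0% and 37.1%. Some of these shares rest on few ends: with Ikzf1/4, 7 of 26 at Gbp2, 13 of 35 at Gbp5 and 22 of 51 at Gbp7. The first Gbp3 start had only 14.3% and 6.67%, and the second 23.4% and 18.3%. Most ends at Gbp3 lay past its first start, in a stretch 400 to 1000 bases downstream (chr3:142560444-142561043) that was picked from the profile. The second Gbp3 start, at chr3:142560356, lies shortly before that stretch. That stretch held 122 ends in the control and 47 with Ikzf1/4, or 8.91 and 5.66 CPM. Around the first Gbp3 start itself, which carries the paired ISRE core printed above, there were 26 and 4 ends, or 1.90 and 0.482 CPM. The 2 ends of a fragment are not independent, so no interval is given.

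**Figure D5:**
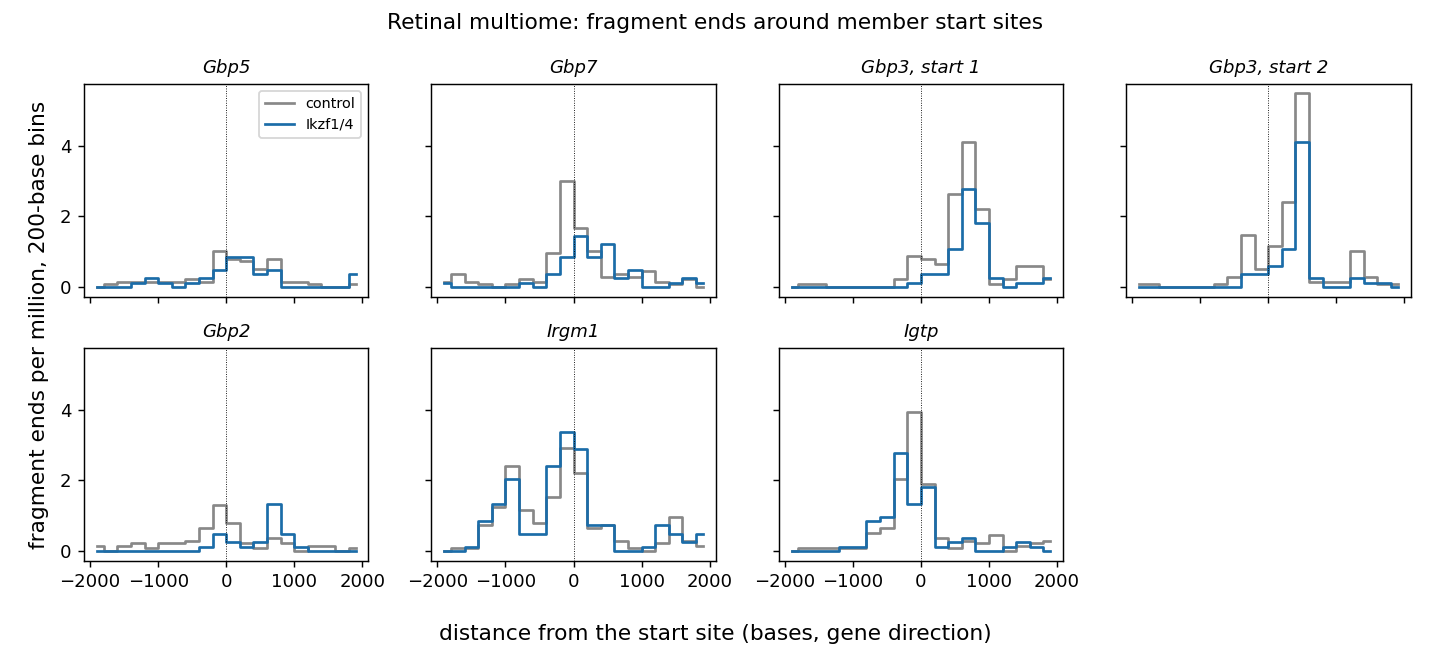
Fragment ends (CPM) in 200-base bins within 2000 bases of each start, along the gene, in filtered barcodes of the control (grey) and Ikzf1/4 (blue) retinal libraries. Ends gather at the start in Igtp, Irgm1 and Gbp7, and downstream of it in Gbp3. There 122 control ends lie 400 to 1000 bases after the first start, a stretch that begins shortly after the second start.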

How the data were processed

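RNA-seq of fibroblasts and single-nucleus ATAC of retina were used. Salmon and DESeq2 are named, without versions, per the submitters' processing notes. The authors deposited estimated counts per Ensembl transcript. No transcript-to-gene table was used here, so those counts gave the depth and a test per transcript in which no transcript was assigned to a gene (edgeR 4.0.16, with DESeq2 1.42.0 and limma 3.58.1 as alternatives, R 4.3.3, counts rounded, filterByExpr, TMM, Benjamini-Hochberg). For each gene the authors' deposited table holds the mean normalised signal over 6 libraries, the log2 fold change and its error, the Wald score, the p-value and the adjusted p-value. No source used here says if fold changes were shrunk. The median standard error in the authors' deposited table was 0.0494 at a mean under 2, 0.172 at 100 to 200 and 0.0652 over 1000, and low errors at the lowest means go with shrunk values.

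Per the file headers, the multiome fragments came from cellranger-arc 2.0.1 on mm10, and each deposited line holds a unique fragment with its count of read pairs. The control file held 52119123 fragments (1.964 read pairs each) and the Ikzf1/4 file 29358834 (4.59 each). Fragments were counted in RefSeq GRCm38.p6 windows with Python 3.11.15 and scipy 1.17.1. Background shares of gene windows use the 18813 with at least 50 fragments over both libraries. Those of promoter windows use all 32851, with no floor. Counting and intervals were tested on simulated data. Nuclei were not split by type, and no doublet caller was run.

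The members and lists were chosen with earlier results of these data known. All 10 members are named. A gene of the family, signalling, target or partner list is named when called with an absolute log2 fold change of at least 0.5, or at the end of its list's range. That rule was not used for the marker lists, of which only some genes are named. Smaller called genes, Irf1, Ifng and the uncalled or unlisted family genes were named after their values were seen. The Ensembl IDs of all 10 members were found in the gene name table. Fibroblast ATAC peak lists, which per their coordinates are not on mm10, and protein sequences were not analysed here. The single-cell RNA-seq samples were not analysed here. One listed signalling gene is counted with its list and is not reported here.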

Additional observations from a re-analysis of the deposited data

How the results depend on the processing

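Of the 10 GTPase genes, 8 were called lower in the authors' deposited table, 2 with an absolute log2 fold change over 1 required as well and 8 at an adjusted p under 0.01, where 11.1% of all genes were called lower and 11.3% higher. Among genes with a mean of at least 20, which leaves out Gbp4, 8 of 9 were called lower, against 18.3% of all such genes lower and 17.7% higher. The multiome ratio over the 10 windows was 1.04. It was 0.935 for barcodes with at least 10000 fragments, 0.923 with 10 kb on both sides and 1.03 for all barcodes. With 10 kb on both sides some windows of neighbouring members overlap, and a fragment in such an overlap counts in each. Filters and windows added after seeing the data gave 0.734 (3000 to 50000 fragments and a promoter share of at least 5%), 0.774 (3000 to 50000 fragments only), 0.842 (promoter share only), 0.665 (promoter windows) and 0.745 (promoter windows, filtered). Under the first 3 of these filters Gbp4 turned from 1.44 to 0.685, 0.752 and 0.978, Gbp5 from 1.43 to 0.725, 0.762 and 0.994, and Gbp9 from 1.44 to 0.667, 0.610 and 0.921. Gbp3 was at 0.425, 0.584 and 0.634, below 1 in each. Irgm1 was at 0.717 with 10 kb on both sides, where its window held 798 and 474 fragments, against 155 and 125 with 2 kb. Most fragments of the wider window thus lay outside the narrower window. The cause of these differences between settings was not tested. Across 43526 transcripts, none assigned to these genes, edgeR's quasi-likelihood test called 3095, of which 1248 were lower. It called 8 with the replicate number as a block, 1849 without the filter on low counts and 728 to 1701 with each library left out (fewest without replicate 2 with Ikzf1/4), and DESeq2 called 7529. Same-numbered libraries did not deviate together (r -0.02, -0.0005 and 0.005 across transcripts), so the numbers were not taken to pair them. The planned counts of fibroblast ATAC peaks were not run. Counts under 60 fragments at promoters leave wide intervals.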
